A study of Bos indicus with 5 samples.

Results

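The transcripts described here encode the enzymes and small proteins that remove oxidants and keep thiols reduced in the ampulla, the stretch of the oviduct between the infundibulum and the isthmus. They were chosen by gene symbol: superoxide dismutases, catalase, glutathione peroxidases, peroxiredoxins, thioredoxins and their reductases, glutaredoxins, methionine sulfoxide reductases, glutathione transferases, the enzymes that make, recycle and break down glutathione, the quinone and heme enzymes NQO and HMOX, metallothioneins, and the regulators NFE2L2 and KEAP1. The symbols matched 63 of the 24616 genes in the table (61 different symbols, as GSTM1 and MT1E each named a pair of entries). Of these, 62 had a mean above 5 normalized reads and were tested. The other one, an entry of GSTM1 (ENSBTAG00000031788), had at most 4.84 normalized reads in any library. GPX1, SOD3, TXNRD3, MSRB1, GSTO1, GGT1 and MT2A were not analysed here.

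RNA was sequenced from the ampulla of multiparous, non-lactating Nelore (Bos indicus) cows, on the side of the corpus luteum and through the whole thickness of the oviduct, on day 4 after the GnRH injection that induced ovulation. The cows of both groups were pre-synchronized with GnRH and a prostaglandin F2 alpha analog, then carried a vaginal progesterone device with an injection of estradiol benzoate, and were given the prostaglandin analog again at device removal and some hours later. In the LF/LCL group (large follicle and large corpus luteum, n = 2) the cows received an additional dose of the prostaglandin analog when the device went in, and the device came out 42 h before GnRH, whereas in the SF/SCL group (small follicle and small corpus luteum, n = 3) it came out 30 h before. The sequenced cows were picked by the study from the ends of its ranking on ovarian and hormone measures, 1 LF/LCL library was discarded by the study, and each library is a different cow, so that the groups differ in treatment as a whole and not in follicle size alone.

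Cells hold hydrogen peroxide and other oxidants in check through a pair of parallel thiol systems. In the first, glutathione is built from glutamate, cysteine and glycine, used by peroxidases, glutaredoxins and transferases, and reduced again by glutathione reductase. In the other, thioredoxin passes electrons from its reductase to peroxiredoxins and methionine sulfoxide reductases. Many of the genes are targets of the transcription factor NFE2L2 (NRF2), which KEAP1 holds in the cytosol and marks for degradation until oxidants or electrophiles modify KEAP1. In the oviduct, gametes and the early embryo are exposed to the fluid that the ampullary lining secretes.

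The libraries held between 13418278 and 19592174 reads assigned to genes, and values are given as normalized reads, which are reads divided by 1 size factor per library. Because the tissue was whole, cell type markers were read beside the members. The ciliated cell markers summed to 65985 and 83698 normalized reads in LF/LCL and to between 98325 and 100986 in SF/SCL, and all 13 of the 13 matched (of 14 listed) had lower mean log2 values in LF/LCL. The smooth muscle markers summed to 94589 and 47684 in LF/LCL and to 28317, 32901 and 13059 in SF/SCL, with all 10 matched (of 11 listed) higher in LF/LCL. The other summed lists overlapped between the groups: secretory (146329 to 174883), stromal fibroblast (20139 to 78033), immune (1617 to 3420), endothelial (3344 to 6527), mesothelial (9299 to 20517) and blood markers (18.2 to 507, with ALAS2 at 0 in every library). OVGP1 alone gave 117179 to 147247 of the secretory sum. At an unadjusted limma p under 0.05, 10 of 13 ciliated markers were higher in SF/SCL and 8 of 10 smooth muscle markers in LF/LCL. Of 7 stromal fibroblast markers 0 passed, though 6 had higher mean log2 values in LF/LCL and 1 lower (median log2 fold change, LF/LCL over SF/SCL, 0.84). Of 6 secretory markers, 2 (EPCAM and PAX8) were higher in LF/LCL at this threshold. So were 4 of 10 immune markers (CD3E, CD52, IL2RG and PTPRC), against 5.64% of all genes. In the secretory and immune lists 0 were higher in SF/SCL at this threshold. Of 5 endothelial markers, 1 (KDR) was higher in SF/SCL, against 5.86% of all genes. By sign alone, 4 secretory markers had higher mean log2 values in LF/LCL and 2 (MUC1 and OVGP1) lower. Of the immune markers, 8 were higher in LF/LCL and 2 (CD14 and CD68) lower. CD68 was higher in every SF/SCL cow (62.2 and 62.9 normalized reads in LF/LCL against 73.8, 73.8 and 194). In such bulk tissue, fewer cells of a type and less RNA per cell cannot be told apart. SF/SCL replicate 3 had the lowest smooth muscle sum and is the library most often highest or lowest over all genes, in 48.0% of the 15815 tested, and the log2 fold changes of GSTA5, TXNIP, CAT and GGT6 are given without it as well.

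The members took 0.618% and 0.650% of the reads of the LF/LCL libraries and 0.573%, 0.628% and 0.762% of those of the SF/SCL libraries. The highest share came from a single gene in SF/SCL replicate 3, TXNIP, which encodes the protein that binds and restrains thioredoxin. Without TXNIP the LF/LCL libraries gave 0.448% and 0.470% and the SF/SCL libraries 0.424%, 0.452% and 0.438%, so that they overlapped between the groups. By mean value, 21 members had at least 1000 normalized reads, 39 had from 15 to 1000 and 3 had fewer than 15.

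The comparison asked which of these transcripts differed in abundance between LF/LCL and SF/SCL cows. A set of 12 members stood out at an unadjusted p, with GSTA2, MGST1, MT3, PRDX6, MSRB3, GLRX5, MSRA and GSTA4 higher in LF/LCL, and GSTT3, GSTM3, GCLM and GSTT1 higher in SF/SCL. With limma, however, 0 of the 62 members reached an adjusted p under 0.05 (adjusted over the whole table; background 0%), and the edgeR quasi-likelihood test on whole reads gave 0 as well (background 0%). The smallest adjusted p of a member with limma was 0.178, which was also the smallest of all 15815 genes. The 12 members at an unadjusted limma p under 0.05 were 19.4% of those tested, against 11.5% of all genes. Higher in LF/LCL were 8 of them (12.9% of the members, against 5.64% of all genes), and higher in SF/SCL were 4 (6.45% against 5.86%). With edgeR 12 members had an unadjusted p under 0.05, of which 11 were shared with limma. The share over all genes is not given for edgeR, so this count shows only how far the tools named the same members.

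DESeq2, which made more calls than limma or edgeR on these libraries, gave an adjusted p under 0.05 for 7 members (11.3%, against 2.89% of all genes). They comprised 5 higher in LF/LCL (8.06%, against 1.38%), namely MGST1, GSTA2, MT3, PRDX6 and GLRX5, and 2 higher in SF/SCL (3.23%, against 1.5%), GSTT3 and GSTT1. These same 7 kept an unadjusted limma p under 0.05 in each fit that left out 1 SF/SCL library. GSTM3 and GSTA4 lost it in at least 1 such fit. GCLM, MSRA and MSRB3 kept it there. Their log2 fold changes shrank to -0.34 (without LF/LCL replicate 1), 0.27 (without LF/LCL replicate 2) and 0.56 (without LF/LCL replicate 1). These fits reuse the libraries on which the members were called, and the share over all genes is not given for them. They are therefore no independent support for the calls.

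Most members were much alike in the groups. The median log2 fold change, LF/LCL over SF/SCL throughout, was -0.03 over the members and 0.01 over all genes tested, and the median of its size was 0.20 over the members and 0.21 over all genes. The log2 fold change was positive in 28 members and negative in 34 (45.2% positive, against 50.8% of all genes tested). The groups did not overlap in 21 members (33.9%, against 30.1% of all genes), with LF/LCL above in 12 (19.4%, against 15%) and SF/SCL above in 9 (14.5%, against 15.1%), which is near the background. A log2 fold change of at least 1 in size was seen in 7 members (11.3%, against 7.79% of all genes), and 5 of these 7 were cytosolic glutathione transferases. The count rests on single cows in part. Without SF/SCL replicate 3 it was 5 of 62 members (against 7.18% of all genes in that fit). Of these 5, 4 were cytosolic transferases, for which no background is given. Without LF/LCL replicate 1, GSTA1, GSTM4 and MT3 fell below 1 in size (0.83, -0.50 and 0.94), while GPX5 and GSTO2 rose above it. Without LF/LCL replicate 2, the same 7 members stayed above 1 in size, and NQO1, GSTO2, MSRB3 and GPX2 joined them.

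**Figure D1:**
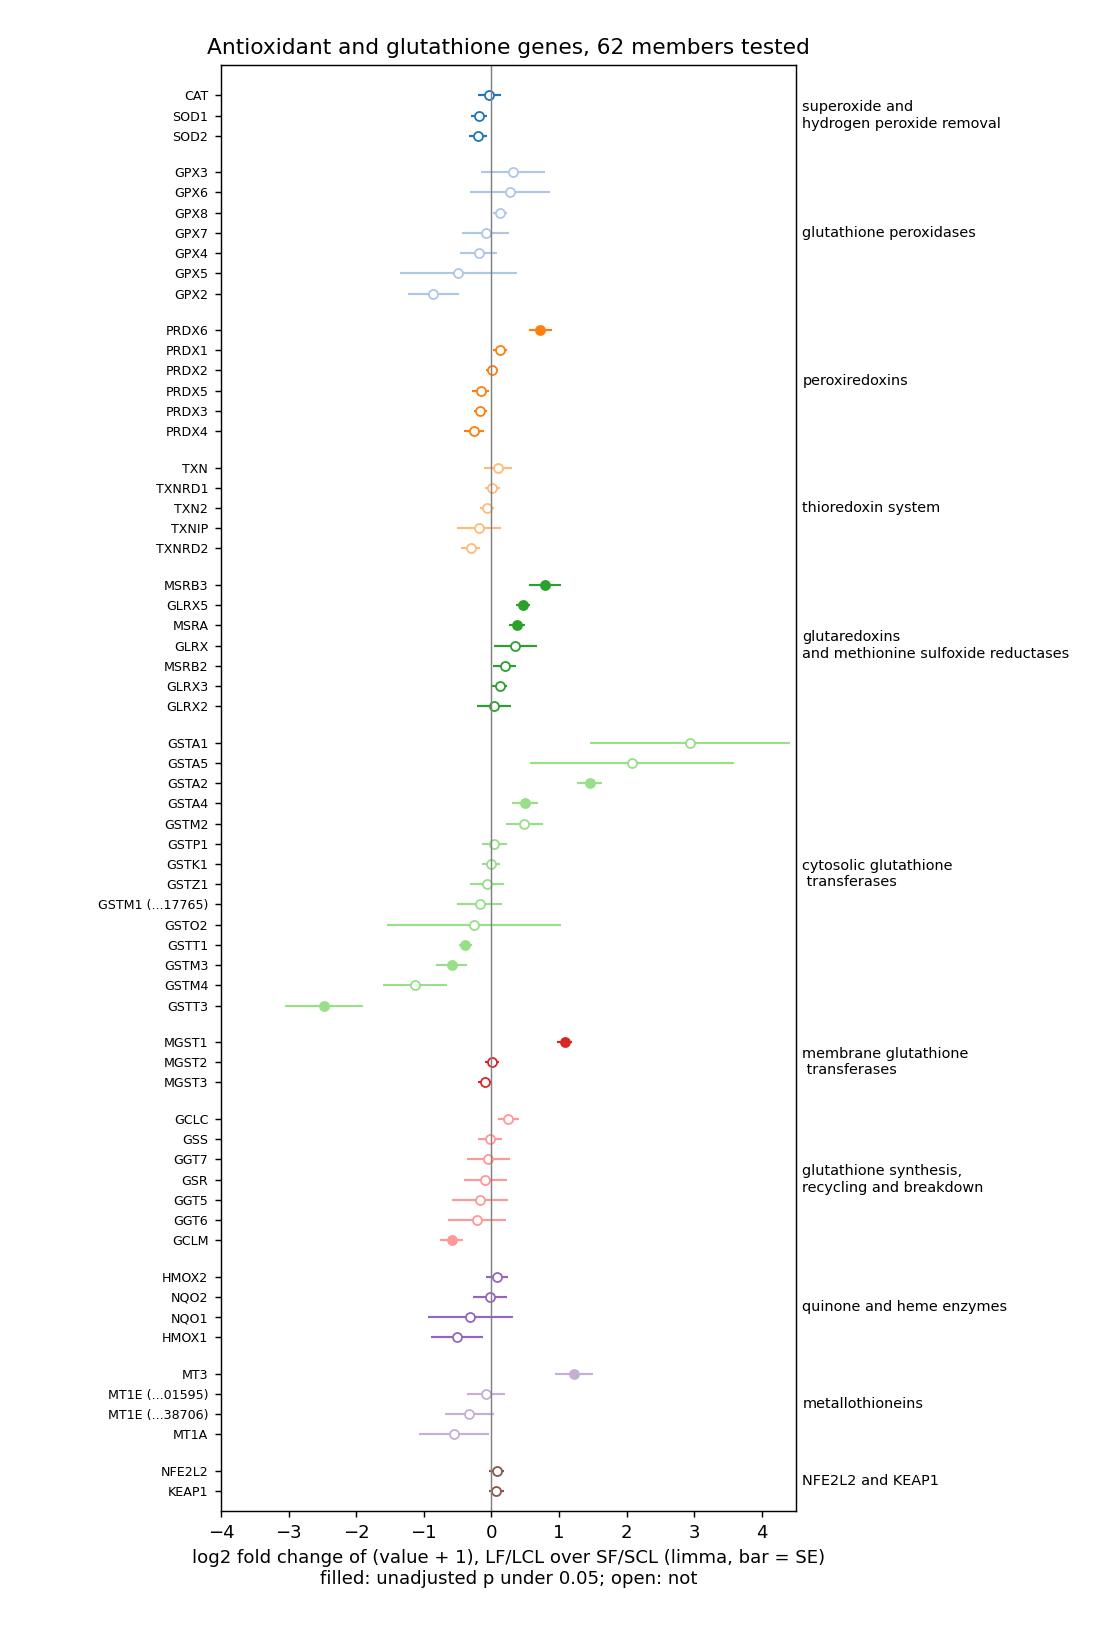
Log2 fold change (LF/LCL over SF/SCL, log2 of the value plus 1) of the 62 members tested, grouped by role, with bars for the standard error of the limma fit and filled points for the 12 members at an unadjusted p under 0.05. The glutathione transferases spread from -2.47 to 2.93, all 7 glutaredoxin and methionine sulfoxide reductase members lie right of 0, and the 3 dismutase and catalase members lie left of it.

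**Figure D2:**
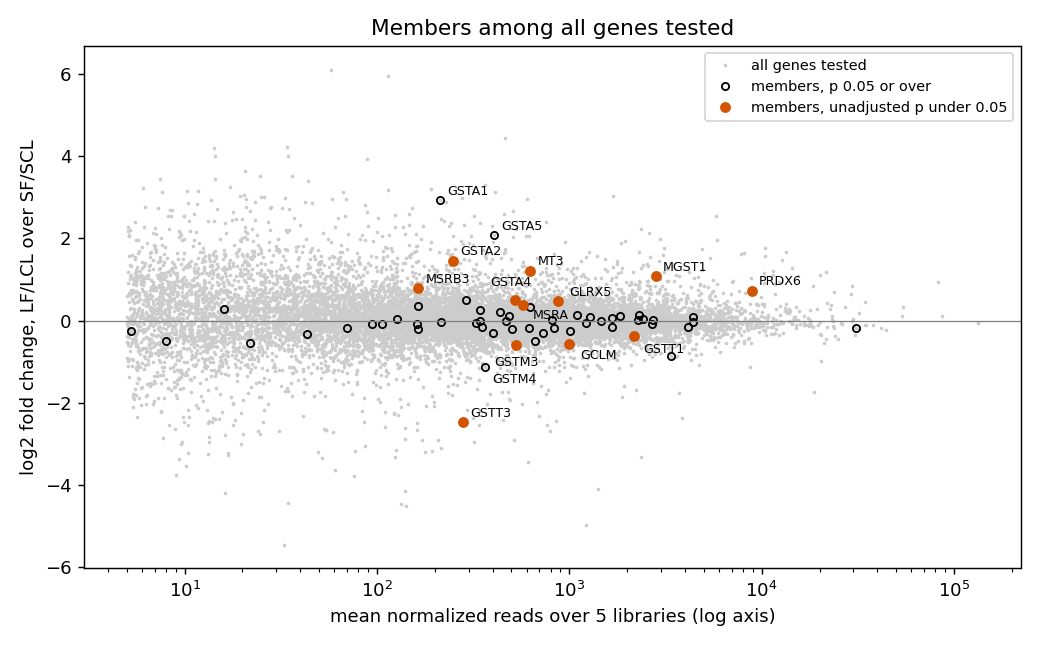
Log2 fold change against the mean normalized reads (log axis) of all 15815 genes tested (grey), with the 62 members as circles and those at an unadjusted limma p under 0.05 filled. MGST1, GSTA2 and GSTT3 lie toward the edge of the cloud at their level, while most members lie within it.

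The cytosolic glutathione transferases, which join glutathione to electrophiles such as lipid aldehydes and drug metabolites, were the most divided group. Of 14 tested, 2 were higher in LF/LCL at an unadjusted p, 3 were higher in SF/SCL and 9 did not pass, and their median log2 fold change was -0.04. The alpha class leaned to LF/LCL. GSTA2, an alpha class enzyme that also reduces lipid hydroperoxides, had 454 and 353 normalized reads in LF/LCL against 138, 145 and 153 in SF/SCL. The SF/SCL cows were nearly identical and the lowest LF/LCL cow was well above them all, with means of 404 ± 71.1 (SD, n = 2) and 146 ± 7.6 (SD, n = 3), a 2.77-fold difference. Its log2 fold change was 1.45 ± 0.19 (SE; 95% confidence interval 0.99 to 1.91) with a limma adjusted p of 0.178 and a DESeq2 adjusted p of 1.6e-07.

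GSTA4, which has a preference for the lipid aldehyde 4-hydroxynonenal, had 731 and 539 normalized reads in LF/LCL against 447, 514 and 383 in SF/SCL. There was no overlap but the gap was narrow, and the log2 fold change of 0.50 ± 0.19 (SE, limma adjusted p = 0.420) ran from 0.28 to 0.71 when single libraries were left out. It no longer passed at an unadjusted p when LF/LCL replicate 1 (which gave the lowest log2 fold change), SF/SCL replicate 1 or SF/SCL replicate 3 was left out.

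GSTA1 and GSTA5 had the widest spread of all members. GSTA1, another alpha class enzyme, had 889 and 47.4 normalized reads in LF/LCL against 15.6, 102 and 10.7 in SF/SCL, an 82.8-fold range over the 5 cows. Its largest value belonged to LF/LCL replicate 1, while LF/LCL replicate 2 lay within the SF/SCL values, so that the log2 fold change of 2.93 had a standard error of 1.48 (limma adjusted p = 0.511). It was 0.83 without LF/LCL replicate 1 and 5.03 without LF/LCL replicate 2. GSTA5 had 678 and 492 in LF/LCL against 471, 367 and 14.0 in SF/SCL. Here a single low cow, SF/SCL replicate 3, set the spread, and the other 4 lay within 367 and 678 (log2 fold change 2.07 ± 1.51 SE, limma adjusted p = 0.658). Without SF/SCL replicate 3 the log2 fold change of GSTA5 was 0.47. Both were named after their values were seen. Reads of alpha class genes were counted only where they mapped uniquely, and copies of near-identical sequence may share or lose reads, so their values are uncertain.

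The theta class, an older branch of the family that acts on small halogenated compounds among others, leaned to SF/SCL. GSTT1 had 1867 and 1807 normalized reads in LF/LCL against 2467, 2360 and 2365 in SF/SCL. The cows of each group lay close together and the gap between groups was several times the spread within them, at 1837 ± 42.4 (SD, n = 2) against 2398 ± 60.3 (SD, n = 3), 1.31-fold. The log2 fold change was -0.38 ± 0.09 (SE; 95% confidence interval -0.61 to -0.16), with a limma adjusted p of 0.282 and a DESeq2 adjusted p of 0.0253. GSTT3 had 148 and 34.8 in LF/LCL against 384, 466 and 370 in SF/SCL, 4.45-fold on the means. All 3 SF/SCL cows were above both LF/LCL cows, which differed widely from each other. This was the most negative log2 fold change of the members, -2.47 ± 0.58 (SE; limma adjusted p = 0.284, DESeq2 adjusted p = 0.0057). It moved to -1.45 without LF/LCL replicate 2 and to -3.50 without LF/LCL replicate 1.

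The mu class was mixed. GSTM3 had 497 and 321 normalized reads in LF/LCL against 507, 622 and 686 in SF/SCL, which gave a log2 fold change of -0.59 ± 0.23 (SE, limma adjusted p = 0.420). The highest LF/LCL cow was next to the lowest SF/SCL cow, and without LF/LCL replicate 2 the log2 fold change was -0.27 (limma unadjusted p = 0.271), while without LF/LCL replicate 1 it was -0.90. Leaving out SF/SCL replicate 2 or 3 also took its unadjusted p above 0.05. GSTM4 had 129 and 310 in LF/LCL against 629, 292 and 460 in SF/SCL, with overlap and a log2 fold change of -1.13 ± 0.47 (SE, limma adjusted p = 0.445), which was -0.50 without LF/LCL replicate 1 and -1.76 without LF/LCL replicate 2. GSTM2 had 413 and 287 against 210, 214 and 327, and the tested entry of GSTM1 (ENSBTAG00000017765) had 623 and 487 against 858, 397 and 705. Both overlapped between the groups, with log2 fold changes of 0.49 ± 0.27 and -0.17 ± 0.34 (SE). Where mu class genes are near-identical in sequence, the caution on uniquely mapped reads holds for them too. How alike these genes are in sequence was not examined here.

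The pi, kappa and zeta classes lay level. GSTP1, the pi class enzyme that also restrains stress kinases, had the highest mean of the cytosolic transferases, with 2665 and 2210 normalized reads in LF/LCL against 1950, 2341 and 2874 in SF/SCL. GSTK1, the kappa class enzyme of mitochondria and peroxisomes, was counted in this group by its symbol and had 1563 and 1364 against 1356, 1667 and 1399. The groups overlapped in both, and the 95% confidence intervals of the log2 fold change were -0.41 to 0.49 and -0.33 to 0.32. GSTZ1, which also works in tyrosine breakdown, had 335 and 294 against 247, 336 and 428. GSTO2, an omega class enzyme that reduces dehydroascorbate, had 28 reads over the 5 libraries and 0 in LF/LCL replicate 1, too few for a direction.

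The membrane-bound transferases belong to another protein family and include enzymes that detoxify lipid peroxides and make leukotriene C4. MGST1, which sits in the endoplasmic reticulum and outer mitochondrial membrane, had 4346 and 3893 normalized reads in LF/LCL against 1953, 2068 and 1799 in SF/SCL. Both LF/LCL cows were far above the highest SF/SCL cow, and the groups had means of 4120 ± 321 (SD, n = 2) and 1940 ± 135 (SD, n = 3), 2.12-fold apart. The log2 fold change of 1.09 ± 0.11 (SE; 95% confidence interval 0.82 to 1.36) ranked 2 among all 15815 genes by p-value, with a limma adjusted p of 0.178 and a DESeq2 adjusted p of 2.5e-11. It stayed between 1.01 and 1.17 when single libraries were left out.

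The other membrane-bound members lay level. MGST2 had 2233 and 2345 normalized reads in LF/LCL against 2127, 2425 and 2304 in SF/SCL, with a log2 fold change of 0.00 (95% confidence interval -0.25 to 0.25). MGST3 had 2512 and 2630 against 2793, 2851 and 2597, with a log2 fold change of -0.09 (95% confidence interval -0.33 to 0.14). Their highest library was 1.14-fold above the lowest in both genes, against 2.42-fold in MGST1.

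**Figure D3:**
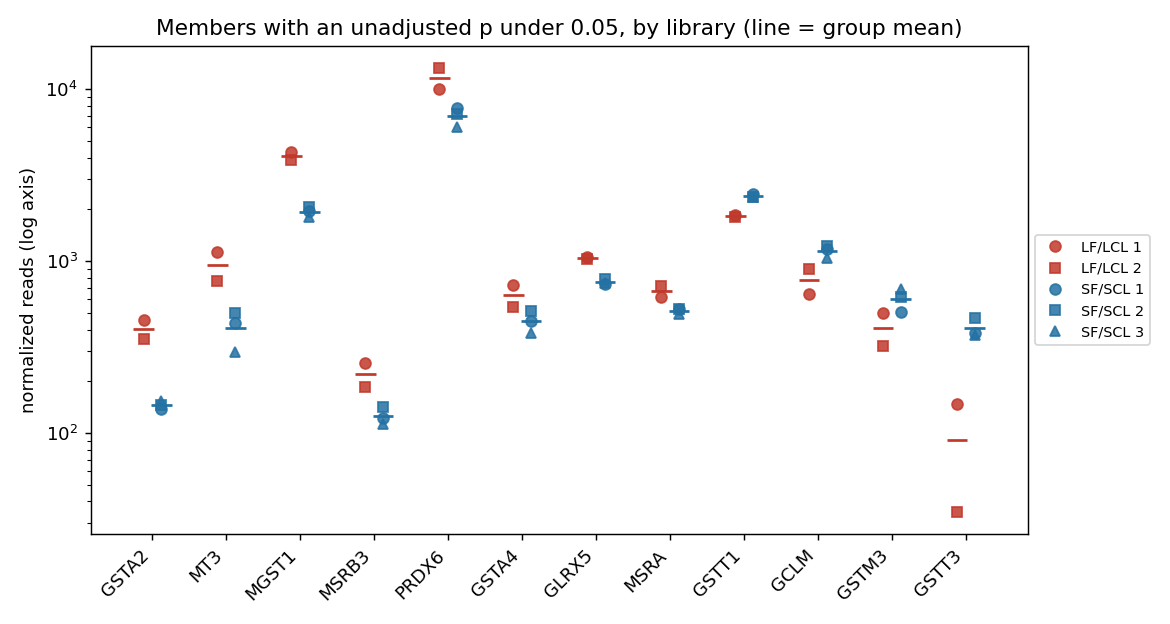
Normalized reads (log axis) in each of the 5 libraries for the 12 members at an unadjusted limma p under 0.05, with each library as a point and a line at each group mean. MGST1 and GSTA2 show the wide gap between groups described in the text, and GSTT3 shows how far its LF/LCL cows lay from each other.

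The peroxiredoxins reduce peroxides with a cysteine of their own. Of 6 tested, 1 was higher in LF/LCL at an unadjusted p and 5 did not pass, and their median log2 fold change was -0.08. PRDX6, the peroxiredoxin that uses glutathione and also acts as a phospholipase on oxidized membranes, had 10012 and 13292 normalized reads in LF/LCL against 7823, 7184 and 6040 in SF/SCL. Both LF/LCL cows were above every SF/SCL cow, at 11652 ± 2319 (SD, n = 2) and 7016 ± 903 (SD, n = 3), 1.66-fold. The log2 fold change was 0.73 ± 0.17 (SE; 95% confidence interval 0.31 to 1.14; limma adjusted p = 0.282, DESeq2 adjusted p = 0.0158), and it was between 0.52 and 0.93 with single libraries left out.

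The peroxiredoxins that depend on thioredoxin did not show that gap. PRDX2, the cytosolic form that is abundant in red blood cells, had 2770 and 2671 normalized reads in LF/LCL against 2726, 2687 and 2709 in SF/SCL. Its highest library was 1.04-fold above the lowest, and 9 of the 15815 genes tested had a narrower range, a gene noted after the values were seen. PRDX1, the other main cytosolic form, had 2361 and 2505 against 2240, 2392 and 2063. PRDX4, which works in the endoplasmic reticulum, had 1012 and 804 against 1001, 1031 and 1213.

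Both mitochondrial peroxiredoxins had lower means in LF/LCL. PRDX3 had 1589 and 1522 normalized reads in LF/LCL against 1808, 1637 and 1777 in SF/SCL, without overlap but with a 95% confidence interval of the log2 fold change that held 0 (-0.40 to 0.08). PRDX5, which is also found in peroxisomes and cytosol, had 3625 and 4147 against 4279, 4829 and 3926, with overlap.

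In the thioredoxin system 0 of 5 members passed at an unadjusted limma p, with adjusted p from 0.481 to 0.982. TXNIP had the highest mean of all members, with 26763 and 28198 normalized reads in LF/LCL against 22843, 26896 and 49558 in SF/SCL. The 2 LF/LCL cows and the other two SF/SCL cows were close to each other, and SF/SCL replicate 3 alone stood above. The log2 fold change was -0.18 ± 0.33 (SE) with all libraries and 0.15 without SF/SCL replicate 3. TXN, cytosolic thioredoxin, had 1693 and 2121 against 1620, 2267 and 1508, and its reductase TXNRD1 had 880 and 766 against 839, 800 and 803. Neither separated the groups. In the mitochondrial pair, TXN2 had 1231 and 1146 against 1169, 1292 and 1284, and TXNRD2 had 334 and 371 against 404, 427 and 481. TXNRD2 was the one gene of the system without overlap (log2 fold change -0.31 ± 0.14 SE, limma adjusted p = 0.481).

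The glutaredoxins, which use glutathione to reduce protein disulfides, and the methionine sulfoxide reductases leaned to LF/LCL. Of 7 tested, 3 were higher in LF/LCL at an unadjusted p and 4 did not pass. All 7 log2 fold changes were positive (against 50.8% of all genes tested), with a median of 0.35. They ran from 0.04 in GLRX2 to 0.79 in MSRB3. GLRX5, a mitochondrial glutaredoxin needed for iron-sulfur cluster assembly, had 1061 and 1036 normalized reads in LF/LCL against 739, 792 and 745 in SF/SCL. The cows of each group lay close together and apart from the other group, at 1049 ± 18.2 (SD, n = 2) and 759 ± 29 (SD, n = 3). This 1.38-fold difference had a log2 fold change of 0.47 ± 0.10 (SE; 95% confidence interval 0.22 to 0.72; limma adjusted p = 0.248, DESeq2 adjusted p = 0.0220).

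MSRA and MSRB3 repair opposite stereoisomers of oxidized methionine. MSRA had 622 and 719 normalized reads in LF/LCL against 525, 525 and 494 in SF/SCL, 1.3-fold on the means, with a log2 fold change of 0.38 ± 0.12 (SE, limma adjusted p = 0.362). MSRB3 had 257 and 185 against 123, 142 and 113, 1.75-fold, with a log2 fold change of 0.79 ± 0.24 (SE, limma adjusted p = 0.334). Neither gene overlapped between the groups. MSRA no longer passed at an unadjusted p when LF/LCL replicate 2 was left out (log2 fold change 0.27), and MSRB3 when LF/LCL replicate 1 was left out (0.56).

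The rest of the group differed less. GLRX3, which carries iron-sulfur clusters in the cytosol, had 504 and 520 normalized reads in LF/LCL against 482, 471 and 459 in SF/SCL, without overlap but only 1.09-fold on the means. GLRX, the main cytosolic glutaredoxin, had 135 and 250 against 161, 150 and 122. GLRX2, of mitochondria and nucleus, had 148 and 110 against 114, 120 and 141, and MSRB2, of mitochondria, had 496 and 443 against 387, 487 and 363. The groups overlapped in these last 3 genes.

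The dismutases, which turn superoxide into hydrogen peroxide, and catalase, which splits hydrogen peroxide into water and oxygen, gave 3 negative log2 fold changes of which 0 passed at an unadjusted limma p. CAT had the highest mean of the group, with 4495 and 4079 normalized reads in LF/LCL against 3820, 4034 and 5446 in SF/SCL. Its highest value again belonged to SF/SCL replicate 3, and the log2 fold change of -0.03 was 0.13 without that library. SOD1, the copper and zinc enzyme of the cytosol, had 816 and 723 against 836, 859 and 936. SOD2, the manganese enzyme of mitochondria, had 489 and 440 against 560, 549 and 495. Both dismutases were lower in every LF/LCL cow, by small margins, with log2 fold changes of -0.19 ± 0.12 and -0.20 ± 0.13 (SE; limma adjusted p = 0.590 and 0.604).

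The glutathione peroxidases gave 0 of 7 at an unadjusted limma p, with log2 fold changes from -0.86 to 0.32. GPX2, the epithelial selenoenzyme best known from the gut lining, had the highest mean of the group, with 1485 and 3201 normalized reads in LF/LCL against 2901, 4455 and 4824 in SF/SCL. The lower LF/LCL cow was below all others, while the higher one lay within the SF/SCL range (log2 fold change -0.86 ± 0.38 SE; limma adjusted p = 0.464). It was -1.42 without LF/LCL replicate 2 and -1.09 without SF/SCL replicate 1, where it passed at an unadjusted p, and -0.31 without LF/LCL replicate 1, where it did not. GPX3, the secreted form, had 493 and 895 against 680, 292 and 760.

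GPX8, a transmembrane enzyme of the endoplasmic reticulum, had 1207 and 1097 normalized reads in LF/LCL against 1055, 1096 and 1006 in SF/SCL, while GPX7, which shares that compartment, had 138 and 72.6 against 114, 117 and 90.1. GPX4, which reduces lipid hydroperoxides inside membranes, had 65.7 and 62.9 against 79.0, 71.5 and 69.8. GPX4 was lower in each LF/LCL cow but by less than its standard error (log2 fold change -0.19 ± 0.27). GPX5 and GPX6, known from the epididymis and the olfactory lining, had between 1.94 and 24.6 normalized reads in any library.

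Among the genes of glutathione synthesis, recycling and breakdown, 1 of 7 passed at an unadjusted p and 6 did not, and their median log2 fold change was -0.09. GCLM, the modifier subunit of the glutamate-cysteine ligase that catalyses the first and limiting step of glutathione synthesis, had 644 and 904 normalized reads in LF/LCL against 1179, 1219 and 1041 in SF/SCL. Every LF/LCL cow was below every SF/SCL cow (774 ± 184 SD, n = 2, against 1146 ± 93.5 SD, n = 3), with a log2 fold change of -0.58 ± 0.17 (SE, limma adjusted p = 0.327). Without LF/LCL replicate 1 it was -0.34 (limma unadjusted p = 0.0819). GCLC, the catalytic subunit, leaned the other way, with 354 and 408 against 292, 350 and 319 (log2 fold change 0.25 ± 0.16 SE, limma adjusted p = 0.590).

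Later steps of the pathway overlapped between the groups. GSS, which adds glycine, had 402 and 534 normalized reads in LF/LCL against 535, 422 and 461 in SF/SCL. GSR, glutathione reductase, had 91.5 and 86.1 against 132, 79.3 and 80.5. Of the gamma-glutamyl transferase family, which breaks glutathione down outside the cell, GGT5 had 378 and 252 against 284, 245 and 599, and GGT7 had 264 and 163 against 262, 234 and 159. GGT6 had 144 and 138 against 176, 94.8 and 262, so that the LF/LCL cows lay between the SF/SCL cows. Its log2 fold change of -0.21 ± 0.43 (SE) moved to 0.13 when SF/SCL replicate 3 was left out and to -0.60 when SF/SCL replicate 2 was.

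The quinone and heme enzymes are classic NFE2L2 targets in part, and 0 of 4 passed at an unadjusted limma p. HMOX2, the constitutive heme oxygenase, had the highest mean of the 4, with 1410 and 1235 normalized reads in LF/LCL against 1053, 1435 and 1276 in SF/SCL. HMOX1, the inducible form, had 413 and 620 against 685, 477 and 1134, with overlap. NQO1, which reduces quinones without forming radicals, had 277 and 1175 in LF/LCL, the lowest and the highest of the 5 values, and 645, 1014 and 542 in SF/SCL. NQO2, its paralog, had 440 and 256 against 349, 304 and 372.

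Metallothioneins bind zinc and copper through their cysteines and also react with oxidants. MT3, the form best known from the brain, had 1138 and 770 normalized reads in LF/LCL against 438, 501 and 295 in SF/SCL. Both LF/LCL cows were above all SF/SCL cows, at 954 ± 260 (SD, n = 2) and 411 ± 106 (SD, n = 3), 2.32-fold. The log2 fold change was 1.22 ± 0.28 (SE; 95% confidence interval 0.54 to 1.90; limma adjusted p = 0.266, DESeq2 adjusted p = 0.0070). It was the only 1 of 4 metallothioneins past an unadjusted limma p of 0.05. The entries of MT1E had 201 and 118 against 160, 180 and 148 (ENSBTAG00000001595) and 43.4 and 31.9 against 49.9, 38.9 and 53.7 (ENSBTAG00000038706). MT1A had 15.2 and 17.4 against 14.6, 29.5 and 33.3. These 3 have negative log2 fold changes with overlap, and being near-identical copies their reads may be split.

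NFE2L2 and KEAP1 lay level between the groups. NFE2L2 had 4629 and 4417 normalized reads in LF/LCL against 4184, 4652 and 4038 in SF/SCL, with a log2 fold change of 0.08 (95% confidence interval -0.18 to 0.34). KEAP1 had 1581 and 1844 against 1675, 1606 and 1590, with a log2 fold change of 0.07 (95% confidence interval -0.19 to 0.34). The limma adjusted p was 0.832 and 0.848. NFE2L2 activity is set mostly at the level of the protein, which these libraries do not measure.

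PRDX6, MT3, GLRX5, MSRB3, MGST1, GSTA2, GSTT1, GGT6, GSTK1, MGST2 and MT1E were among the genes that the study listed from these libraries or from the isthmus of the same cows, so that their choice is not independent of differences between these cows. The directions were not all the same. The study listed MGST1, MGST2, GGT6 and GSTK1 for the SF/SCL isthmus, and PRDX6 for both the LF/LCL ampulla and the SF/SCL isthmus. In the ampulla here MGST1 and PRDX6 had higher means in LF/LCL.

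**Figure D4:**
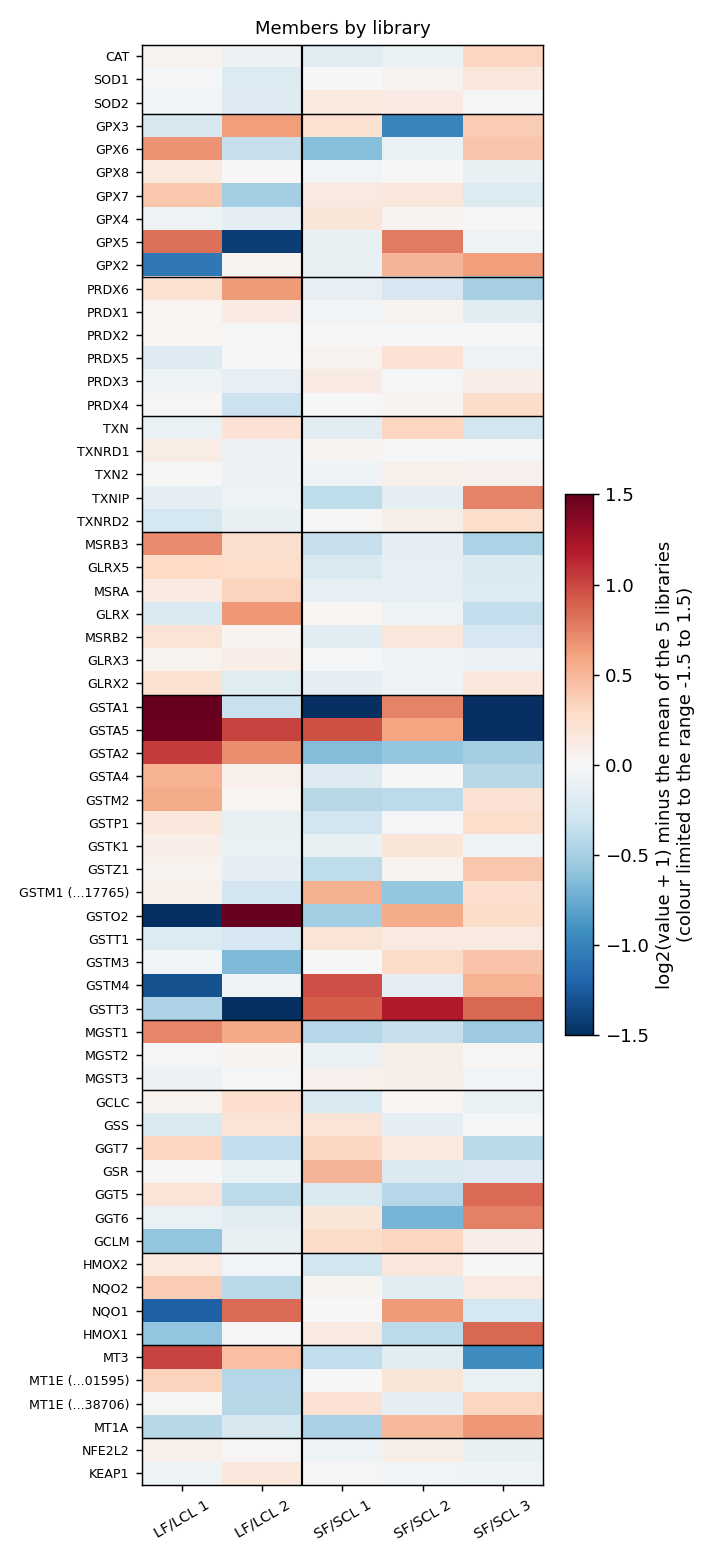
Difference of each library from the mean of the 5, on the log2(value + 1) scale, for the members tested, with libraries as columns and members as rows grouped by role. LF/LCL replicate 1 is the highest in GSTA1, and SF/SCL replicate 3 is the lowest in GSTA5 and the highest in TXNIP.

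With 5 libraries every gene has a highest and a lowest one by construction, so these shares are read only beside those of all genes. LF/LCL replicate 1 was the highest or lowest library in 31 of the members tested (50.0%, against 43.3% of all genes) and SF/SCL replicate 3 in 30 (48.4%, against 48.0%). LF/LCL replicate 2 was so in 27 (43.5%, against 40.6%), SF/SCL replicate 1 in 21 (33.9%, against 30.3%) and SF/SCL replicate 2 in 15 (24.2%, against 37.7%). The median ratio of the highest to the lowest library was 1.67 over the members, and 27 of them (43.5%, against 46.8% of all genes) stayed under 1.5. Without SF/SCL replicate 3, 11 members had an unadjusted limma p under 0.05, of which 10 were shared with the fit of all 5 libraries. The share over all genes is not given for that fit.

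Some members had the same order of cows as the smooth muscle markers. Ordered by the smooth muscle sum, the cows ran from SF/SCL replicate 3, the lowest, over SF/SCL replicates 1 and 2 to LF/LCL replicate 2 and LF/LCL replicate 1. MGST1, MT3, GSTA4, MSRB3 and GPX8 had exactly this order, which is 5 of the members tested (8.06%, against 2.02% of all genes), and 0 members had the reverse order (against 1.69% of all genes). The order of the ciliated marker sum was met by 1 member, GCLM (1.61%, against 1.69%). GSTA2, PRDX6 and GLRX5 had neither order. Both orders separate the LF/LCL from the SF/SCL cows, so that following a marker sum cannot be told apart from a group difference. In GPX8 the order rests on 1097 normalized reads in LF/LCL replicate 2 against 1096 in SF/SCL replicate 2. The part of smooth muscle and ciliated cell content in these differences was not tested.

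**Figure D5:**
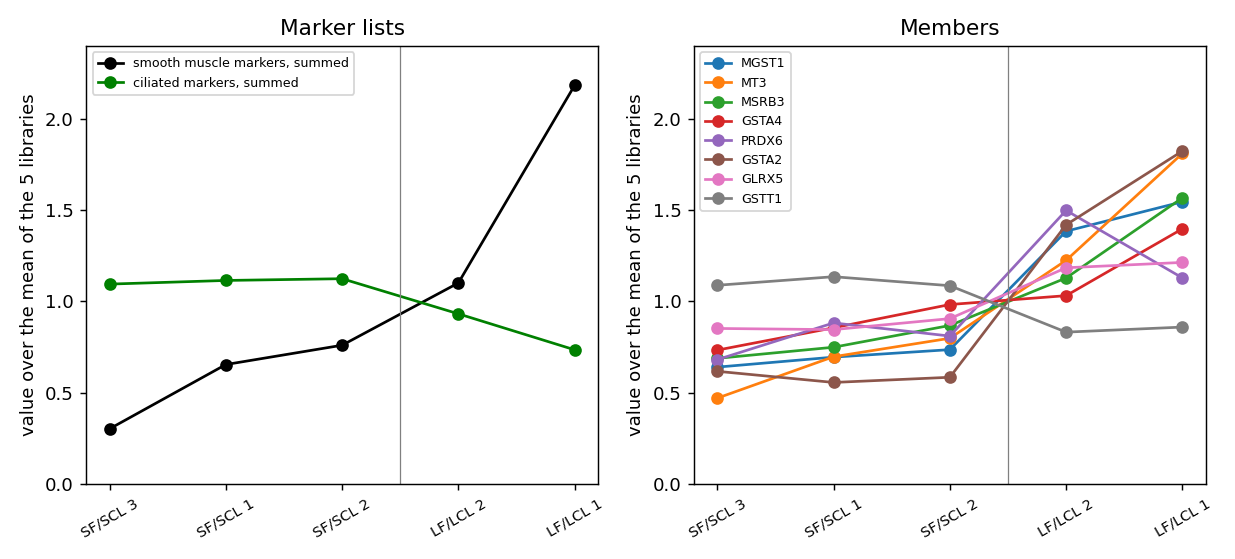
Summed smooth muscle and ciliated marker values (left) and the values of 8 named members (right) in the 5 libraries, each divided by its mean over the libraries, which are ordered by the smooth muscle sum. Lines join the points of one list or gene, and MGST1, MT3, MSRB3 and GSTA4 climb with the smooth muscle sum from SF/SCL replicate 3 to LF/LCL replicate 1.

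Genes around the pathway were read in 7 related lists. Of the 87 genes tested, 0 had an adjusted p under 0.05 with limma (background 0%) or with DESeq2 (background 2.89%). An unadjusted limma p under 0.05 was seen in 13 (14.9%, against 11.5% of all genes). By list these were 1 of 12 partners of NFE2L2 and KEAP1, 0 of 9 enzymes of NADPH supply, 2 of 15 genes of cysteine supply and glutathione turnover, 3 of 13 selenoproteins and their synthesis factors, 3 of 15 other thiol proteins, 2 of 12 oxidant sources and 2 of 11 genes of iron, bilirubin and metal handling. The median log2 fold change ran from 0.01 for the selenoproteins to 0.27 for cysteine supply and glutathione turnover. In the latter list 13 genes were positive and 2 negative, where 50.8% of all genes tested were positive.

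Of the genes with an unadjusted limma p under 0.05, those higher in LF/LCL were GGCT, which splits gamma-glutamyl amino acids (108 and 96.8 normalized reads against 55.1, 63.0 and 54.7), SELT and SEPHS2, a selenoprotein of the endoplasmic reticulum and a selenophosphate synthetase (log2 fold changes 0.38 and 0.40), NXN, a thioredoxin relative (0.41), QSOX1, a secreted sulfhydryl oxidase (0.43), MAOB, a mitochondrial amine oxidase that releases hydrogen peroxide (0.82), ACO1, the cytosolic aconitase that senses iron (0.47), and BLVRA, biliverdin reductase (0.38). Those higher in SF/SCL were NFE2L3, a relative of NFE2L2 (753 and 1249 against 1354, 1470 and 1413), SLC3A2, the partner chain of the cystine transporter (-0.36), SEPW1 (-0.44), SESN2, a stress-induced sestrin (-0.86), and MAOA (-0.34). The monoamine oxidases thus lay on opposite sides, with MAOB at 1610 and 1006 in LF/LCL against 850, 761 and 576 and MAOA at 1031 and 876 against 1227, 1332 and 1070. The adjusted p of these genes with limma ran from 0.302 to 0.428.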

How the data were processed

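Ampulla RNA from 5 cows was analysed, 2 of the LF/LCL and 3 of the SF/SCL group. PolyA libraries were sequenced as read pairs, and the authors trimmed the reads with seqyClean, aligned them with TopHat2 2.0.8 and Bowtie2 2.1.0 against a masked cattle genome (UMD assembly), and took the uniquely mapped reads of each Ensembl gene with HTSeq 0.5.4p2. Whether counting used strand is not given in the sources used here, so overlapping and antisense genes are uncertain. The deposited unit is a normalized signal, the read count divided by 1 DESeq 1.12.1 size factor per library. Every value was a whole multiple of a step per library, and whole reads were recovered for 100% of values (tolerance 0.001).

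Members were found by symbol, and the members, role groups and related lists were chosen with earlier results of these data known. The main test was limma 3.58.1 (R 4.3.3; lmFit, eBayes with trend and robust) on log2(value + 1) for the 15815 genes with a mean over 5, two-sided, with Benjamini-Hochberg adjustment over all of them, a threshold of 0.05 and no covariates, since the labels give no batch. Fold changes on this scale understate the change of low genes. edgeR 4.0.16 (quasi-likelihood) and DESeq2 1.42.0 on the recovered reads, other pseudocounts, filters and scalings, and fits without each library were alternatives, and the fits were tested on simulated data. Named with every library's value were members at an unadjusted p under 0.05 or an adjusted p under 0.05 by any of the 3 tools, the most abundant member of each role group, NFE2L2, KEAP1 and members the study lists. The values of other members were added after they were seen. Related genes were named at an unadjusted p under 0.05. The libraries are of separate cows, so that p-values set the group difference against the spread between cows, which limma moderates across genes. The cows were picked from the ends of a ranking, so this spread need not be that of all cows in each group. The depth, 13418278 to 19592174 reads, limits the precision of members with few reads. No sequences or coordinates are given, as the files used here hold none for the build used.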

Additional observations from a re-analysis of the deposited data

How the results depend on the processing

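With 2 and 3 cows a group, differences of the size seen in most members could not be told from the spread between cows. The count of members at an unadjusted p under 0.05 was 12 with limma. It was between 10 and 15 with edgeR, DESeq2, other pseudocounts, filters, scalings and variance estimates. When single SF/SCL libraries were left out it was between 11 and 14. The share over all genes is not given for these alternatives, so the counts show only how the number moved. The count with an adjusted p under 0.05 was 0 under these limma and edgeR alternatives and with single libraries left out (0 to 0), and 7 with DESeq2. Leaving out single libraries gave 25 to 42 members whose groups did not overlap (37 and 42 without LF/LCL replicates 1 and 2, where 1 library is left in that group and is assumed to vary like the others), against 21 with all libraries. Leaving out a library can only keep or raise the count without overlap, and its share over all genes is not given for these fits. The rise from 21 therefore shows nothing particular to the members. With single libraries left out, the median log2 fold change of the members ran from -0.10 to 0.031.

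For the 24 members named by the rule, 336 alternative values were computed, and 14 of them, all with 1 library left out, had the opposite sign. These belong to 9 members whose log2 fold changes were small. Over the fits without 1 library they ran from -0.13 to 0.13 for CAT, -0.60 to 0.13 for GGT6, -0.11 to 0.091 for GSTK1, -0.10 to 0.18 for GSTP1, -0.037 to 0.19 for HMOX2, -0.038 to 0.18 for KEAP1, -0.047 to 0.048 for MGST2, -0.46 to 0.30 for MT1E (ENSBTAG00000001595) and -0.41 to 0.15 for TXNIP. The cause of these moves was not tested. Leaving out single libraries for the members with a log2 fold change of at least 1 in size was an alternative chosen after their values were seen. The count of members without overlap has no value under another test or pseudocount. No outlier test of single libraries was made, as groups of 2 and 3 are too small for one. No paired analysis was possible because the labels carry animal numbers that the groups do not share.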

Other observations

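The subunits of glutamate-cysteine ligase leaned in opposite directions without overlap in either, GCLM toward SF/SCL and GCLC toward LF/LCL. Their ratio, which must then separate the groups, was 1.82 and 2.21 for the LF/LCL cows and 4.04, 3.49 and 3.27 for the SF/SCL cows, in normalized reads not corrected for transcript length. It was formed after the values of both genes were seen, and no test is given.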
